A study of Homo sapiens with 4 samples.

Results

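The 39 DNA replication genes examined here encode the proteins that licence origins, unwind and copy DNA and supply its building blocks, together with the transcription factors E2F1 and E2F2 and the E2F- and MYC-responsive gene CDCA7. They were taken by symbol from a given list, which was chosen with earlier results of these data known. All 39 were found among the 23577 genes with a usable row and kept for comparison. They were read in 4 established human leiomyosarcoma lines, SKUT1, RKN, SKLMS1 and SKN, leiomyosarcoma being a malignant tumour of smooth muscle type. Each line was an untreated culture in DMEM, a standard growth medium, with 10% FBS (fetal bovine serum) and gave 1 RNA-seq library of polyadenylated RNA, so every line was its own group. No line served as a control, and differences between lines have no replicate check, error or p-value. Levels are FPKM as deposited, that is fragments per length of transcript scaled to the size of the library, so that genes may be compared by level within a line.

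Replication starts when the origin recognition complex, CDC6 and CDT1 load the ring of MCM2 to MCM7 onto DNA. CDC45 and the GINS complex then turn the ring into an active helicase, and DNA polymerases, held by the sliding clamp PCNA, copy the strands. Many of these genes are transcribed late in G1 and in S phase under E2F factors, which the retinoblastoma family holds in check, so their mRNA is commonly read as a mark of cycling cells. In a culture extract, a smaller share of cycling cells and less mRNA per cycling cell cannot be told apart.

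The promoters of several members show the letters that E2F factors are known to bind, and stretches of 6 of them are given below. The part of these letters in the levels of the members was not tested. Promoter sequences came from RefSeq (GRCh38.p14), in which 34 of the 39 members were matched, and the 250 bases before the start listed first for each gene were searched on both strands. The words searched were TTTCCCGC, TTTCGCGC, TTTGCCGC and TTTGGCGC, of which TTTCGCGC overlaps TTTGGCGC on the opposite strand in MCM6. At least 1 word was found in 15 of the 34 members (44.1%), against 4.29% of 9828 promoters of genes kept for comparison and 2.79% of 27305 promoters in all. The stretches below are the members with the most words, ties going to the wider range of levels, written 5′ to 3′ on the gene's own strand with the words in capitals.
MCM6 (chr2:135876502-135876615, minus strand): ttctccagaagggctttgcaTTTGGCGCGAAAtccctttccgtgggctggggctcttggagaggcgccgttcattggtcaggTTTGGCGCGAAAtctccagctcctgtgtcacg
MCM7 (chr7:100101398-100101426, minus strand): cggtcacgtggggggcgacgTTTCGCGCc
E2F1 (chr20:33686386-33686438, minus strand): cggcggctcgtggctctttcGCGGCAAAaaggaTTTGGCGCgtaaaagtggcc
CDCA7 (chr2:173354787-173354834, plus strand): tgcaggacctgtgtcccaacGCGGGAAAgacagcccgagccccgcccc
TYMS (chr18:657594-657641, plus strand): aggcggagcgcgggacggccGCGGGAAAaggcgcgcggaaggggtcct
E2F2 (chr1:23531248-23531295, minus strand): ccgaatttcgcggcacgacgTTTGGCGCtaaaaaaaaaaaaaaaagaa

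MCM6 carried 2 overlapping pairs of words, beginning 152 and 90 bases before its start, and MCM7 had a further word 187 bases before its start. The words of the remaining 4 genes lay between 65 and 20 bases before the start. The CCAAT box, another element of cell cycle promoters, was found in 18 of the 34 members (52.9%, against 35.0% of promoters of kept genes). The CHR words TTTGAA and TTTAAA, known from genes of late cell cycle phases, were found in 3 members (8.82%, against 14.0%). A match is only a run of letters, and its absence says only that these letters were not in this window.

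The libraries themselves were alike in detection. Their summed FPKM was 619584 in SKUT1, 446954 in RKN, 494047 in SKLMS1 and 538300 in SKN, and 11460 to 11738 genes per line had an FPKM of 1 or more. The table gives no read counts, and an estimate of depth from low values gave 23400000 to 33900000 reads, at which 1 read on a transcript of 2 kb is worth an FPKM of 0.0164 to 0.0237. The defining smooth muscle genes were uneven: ACTA2 was 1085 in SKUT1, 84.7 in RKN, 127 in SKLMS1 and 1.37 in SKN, while DES and MYH11 did not exceed 1.15 in any line. TAGLN was 3816 in SKUT1 and 5.82 to 531 elsewhere, and CNN1 was 86.4 in SKUT1 and 0.228 to 29.6 elsewhere. Of 12 such markers 9 were at least 2-fold higher in SKUT1, where they summed to 11530, with 840 in RKN, 4241 in SKLMS1 and 668 in SKN. All 6 fibroblast markers were at least 2-fold higher in SKUT1, where they summed to 7163 against 0.399 to 190 in the other lines, with COL1A2 at 5096, DCN at 1064 and LUM at 415 in SKUT1. The endothelial and leukocyte markers PECAM1, CDH5, VWF, PTPRC, CD3E and LYZ were at or near 0 throughout (at most 0.29), with CD68 at 75.3 in SKUT1 and 4.76 to 21.9 elsewhere and KDR at 4.91 in SKN. The 6 epithelial markers summed to 55.5 to 549, with KRT8 at 1.99 to 268, KRT18 at 7.84 to 283 and KRT19 at 0.342 to 146. The others were low in every line, with EPCAM at 0.208 to 1.80, CDH1 at 0.045 to 1.2 and CLDN4 at 0.316 to 1.02.

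SKUT1 had the lowest replication gene expression of the 4 lines. It was the lowest line for 37 of the 39 members, against 27.9% of the 13713 genes that reached an FPKM of 1 in any line, called kept genes. All 39 members lay below the mean of the other 3 lines, as did 6996 of the kept genes. On the log2(FPKM + 1) scale, 25 members were at least 2-fold below that mean and none was 2-fold above it. No member was listed at 0. Among all kept genes 13.1% were at least 2-fold lower in SKUT1 and 17.9% at least 2-fold higher. The median member difference was -1.29, against -0.03 for all kept genes. The 39 levels summed to 746 FPKM in SKUT1, whereas they reached 2408 in RKN, 1719 in SKLMS1 and 1335 in SKN. The median member stood at percentile 56.7 of kept genes by level in SKUT1 and at 84.1 in RKN, 78.3 in SKLMS1 and 75.9 in SKN. The fibroblast and smooth muscle markers were high in the same line, and their part in the difference was not tested.

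**Figure D1:**
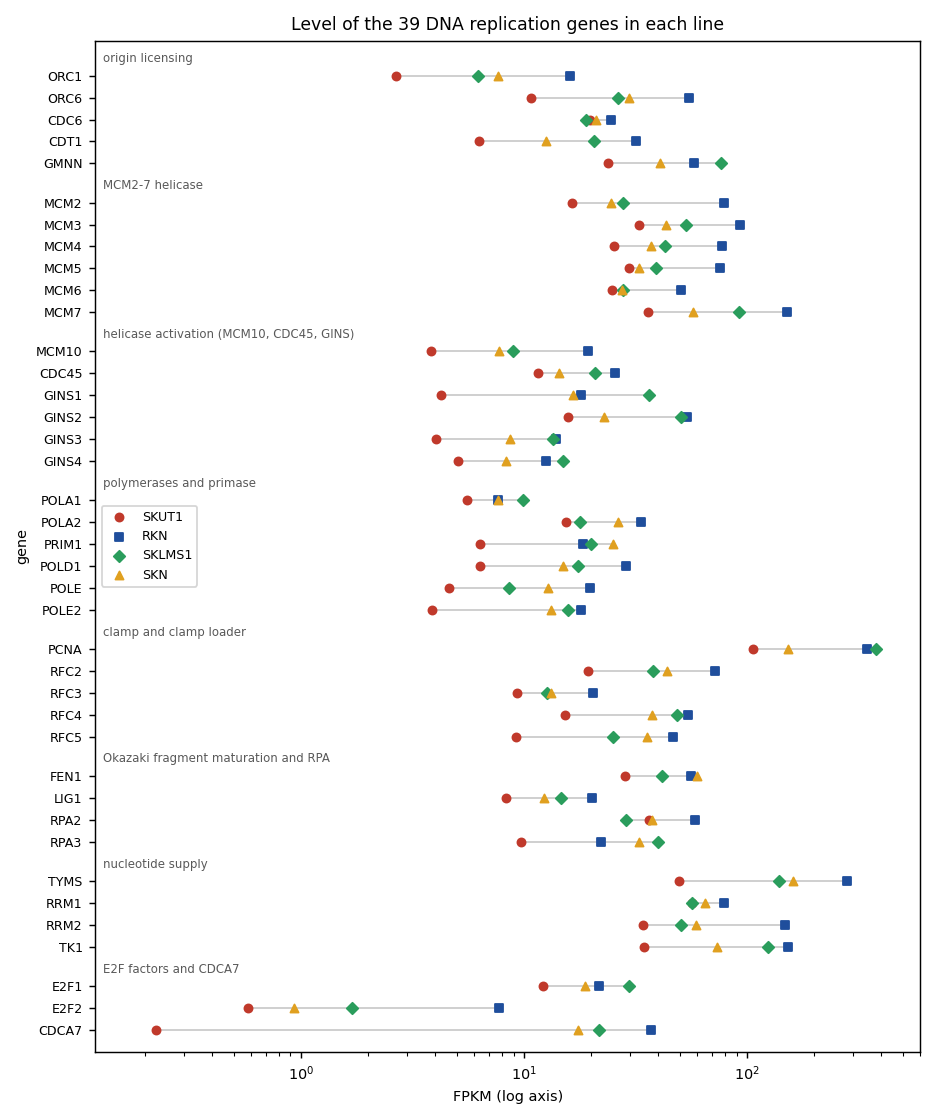
FPKM (log axis) of each of the 39 genes, grouped by role, with 1 point per line (SKUT1 red circle, RKN blue square, SKLMS1 green diamond, SKN yellow triangle) and a grey bar from the lowest to the highest line. SKUT1 is the leftmost point for all members except CDC6 and RPA2, with its RRM1 point (57.0) hidden under that of SKLMS1 (57.1), and RKN is the rightmost for 30 of them.

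RKN stood at the other end. It was the highest line for 30 of the 39 members, against 28.4% of all kept genes, and the lowest for none (26.7% of kept genes). It lay above the mean of the other lines for 38, and for 6620 of the 13713 kept genes. At least 2-fold higher were 19 members and none was 2-fold lower, where 11.6% of kept genes were 2-fold higher and 16.6% 2-fold lower. The median member difference was 0.91, against -0.04 for all kept genes. Part of this distance was the low level of SKUT1 in the comparison: with SKUT1 left out, RKN was 0.65 above the mean of SKLMS1 and SKN at the median, and 7 members were at least 2-fold higher, where 11.0% of kept genes were. Both ends held after rescaling the columns to the same sum, which moved the median of all genes to -0.31 in SKUT1 and 0.24 in RKN. On that scale 32 members were at least 2-fold lower in SKUT1 and 29 at least 2-fold higher in RKN, and relative to all genes the member medians were -1.33 and 0.97. Of all kept genes, 22.9% were then 2-fold lower and 15.0% 2-fold higher in SKUT1, and 15.5% and 20.5% in RKN.

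SKLMS1 and SKN lay between these lines and close to each other. Their median member differences from the other lines were 0.08 and -0.08. In SKLMS1, GINS1, PCNA, RPA3 and CDCA7 were at least 2-fold higher (10.7% of kept genes were) and no member was 2-fold lower (9.83%). SKLMS1 was the highest line for 7 members (19.7% of kept genes) and SKN for 2 (21.1%). In SKN no member was 2-fold higher or lower (9.97% and 10.8% of kept genes were). Those small counts depended on the lines compared. Without RKN, 12 members were 2-fold higher in SKLMS1 (10.8% of kept genes were) and 3 in SKN (10.2%). Without SKUT1, 1 was higher in SKLMS1 (12.6%) and 4 were 2-fold lower in SKN (10.2%). Without SKLMS1, 3 were higher in SKN (11.6%). The medians also changed sign with the lines compared, from -0.26 without SKUT1 to 0.61 without RKN in SKLMS1, and from -0.45 to 0.20 in SKN.

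Compared pair by pair, 33 members were at least 2-fold higher in RKN than in SKUT1 (17.9% of kept genes were), 20 in SKLMS1 than in SKUT1 (15.0%) and 15 in SKN than in SKUT1 (15.1%). No member was at least 2-fold lower in RKN, SKLMS1 or SKN than in SKUT1, where 22.9%, 18.2% and 18.4% of kept genes were. RKN exceeded SKLMS1 by 2-fold for 9 members and SKN for 13 (13.1% of kept genes in each case), and no member was 2-fold lower in RKN than in SKLMS1 (16.1% of kept genes were) or in SKN (15.7%). Between SKLMS1 and SKN 3 members were 2-fold apart, all higher in SKLMS1 (12.3% of kept genes were, and 11.3% were lower). By less than 1.5-fold differed 29 of the 39, a limit at which the share of all kept genes was not counted. The order RKN, SKLMS1, SKN, SKUT1 from high to low held for 18 members and the order RKN, SKN, SKLMS1, SKUT1 for 10, so the middle places were commonly exchanged. The shares of these orders among all kept genes were not counted.

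**Figure D2:**
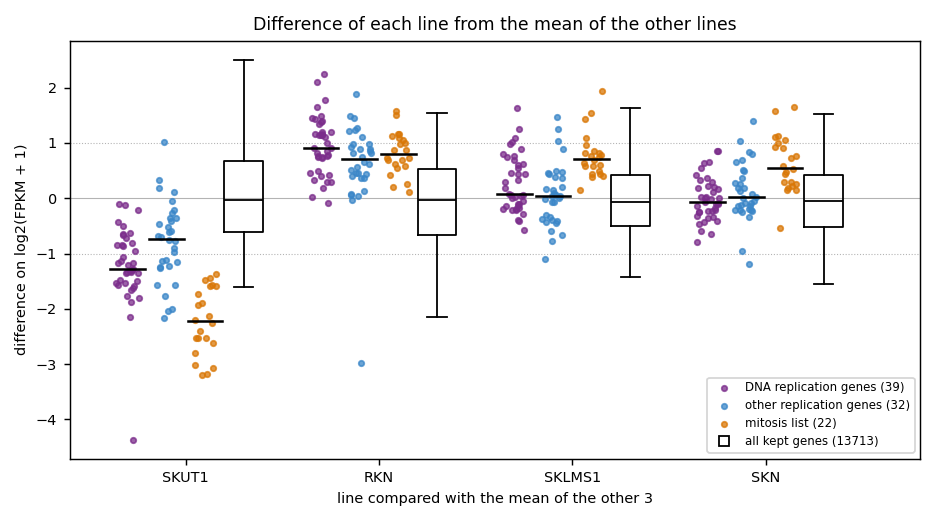
Difference of each line from the mean of the other 3 lines on log2(FPKM + 1) for the 39 replication genes, 32 other replication genes and 22 mitosis genes (points, with black bars at the medians), beside all 13713 kept genes (box from the 25th to the 75th percentile, whiskers at the 5th and 95th). The replication genes lie below 0 in SKUT1 (median -1.29) and mostly above 0 in RKN (median 0.91), and the mitosis genes lie lower still in SKUT1 (median -2.23).

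Origin licensing genes were at least 2-fold lower in SKUT1 in 4 of 5 cases, with CDC6 as the exception. ORC1, the ATPase subunit of the origin recognition complex that is renewed each cycle, was 2.67 in SKUT1, against 7.64 in SKN, 6.25 in SKLMS1 and 16.2 in RKN. ORC6, the smallest subunit, was 10.8 in SKUT1, with 55.2 for RKN, 26.5 for SKLMS1 and 29.5 for SKN. SKUT1 was well apart at the low end for both genes, and RKN at the high end. CDT1, which brings the MCM ring to origins, was 6.32 in SKUT1, compared with 12.5 in SKN, 20.6 in SKLMS1 and 31.8 in RKN. Its inhibitor GMNN, geminin, was 23.9 in SKUT1, whereas RKN had 58.1, SKLMS1 76.8 and SKN 40.9. The ratio of CDT1 to GMNN was thus alike in SKUT1 (0.264), SKLMS1 (0.268) and SKN (0.307) and was 0.548 in RKN. CDC6, the loading ATPase that acts beside CDT1, was 19.9 in SKUT1, against 21.2 in SKN, 18.9 in SKLMS1 and 24.7 in RKN, the narrowest range of any member at 1.30-fold from lowest to highest. SKUT1 therefore had 3.15 times as much CDC6 as CDT1 per length, against 1.69 in SKN, 0.921 in SKLMS1 and 0.776 in RKN.

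The 6 subunits of the MCM ring summed to 165 in SKUT1, with 527 for RKN, 283 for SKLMS1 and 223 for SKN. MCM7 was the most abundant subunit in every line, at 36.0 in SKUT1, compared with 57.4 in SKN, 92.3 in SKLMS1 and 151 in RKN. MCM2, which also chaperones histones at the fork, was 16.4 in SKUT1, whereas RKN had 79.0, SKLMS1 27.8 and SKN 24.7. MCM7 and MCM2 were the only subunits to pass 2-fold below the other lines in SKUT1, at log2 differences of -1.35 and -1.16. MCM3 was 33.0 in SKUT1, against 43.6 in SKN, 53.2 in SKLMS1 and 92.8 in RKN. MCM4 was 25.4 in SKUT1, with 77.7 for RKN, 43.1 for SKLMS1 and 37.3 for SKN. MCM5 was 29.6 in SKUT1, compared with 32.7 in SKN, 39.2 in SKLMS1 and 76.0 in RKN. In all 3, RKN stood apart and the other lines lay nearer to each other. MCM6, whose promoter held the most E2F words, differed little outside RKN, with 24.8 in SKUT1, 27.8 in SKLMS1 and 27.5 in SKN, against 50.6 in RKN. In RKN 5 of the 6 were at least 2-fold higher, MCM6 being the exception at 0.90. Within a line the most and the least abundant subunit differed 2.19-fold in SKUT1, 2.99-fold in RKN, 3.33-fold in SKLMS1 and 2.33-fold in SKN, although the proteins occupy the ring in equal number.

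Of the 6 genes that activate the helicase, 5 were at least 2-fold lower in SKUT1, 2 at least 2-fold higher in RKN and only GINS1 in SKLMS1. Their median log2 difference was 0.74 in RKN and 0.75 in SKLMS1, where MCM10 was near 0 (0.06). GINS1 had the widest range of the group, at 4.26 in SKUT1, whereas RKN had 18.0, SKLMS1 36.4 and SKN 16.6, and its log2 difference was -2.14 in SKUT1 and 1.63 in SKLMS1. GINS2 was 15.7 in SKUT1, against 22.9 in SKN, 50.7 in SKLMS1 and 54.1 in RKN. GINS3 was 4.04 in SKUT1, with 13.9 for RKN, 13.6 for SKLMS1 and 8.64 for SKN. All 4 GINS subunits, which form a single complex, were at least 2-fold lower in SKUT1, GINS4 included (5.06 in SKUT1, 12.6 in RKN, 14.9 in SKLMS1 and 8.32 in SKN). MCM10, which helps to start unwinding, was 3.84 in SKUT1, compared with 7.76 in SKN, 8.97 in SKLMS1 and 19.5 in RKN. CDC45, the helicase partner of the MCM ring and GINS, was 11.6 in SKUT1, whereas RKN had 25.7, SKLMS1 20.8 and SKN 14.3. CDC45 was the member of this group closest to the other lines in SKUT1, with a log2 difference of -0.72.

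**Figure D3:**
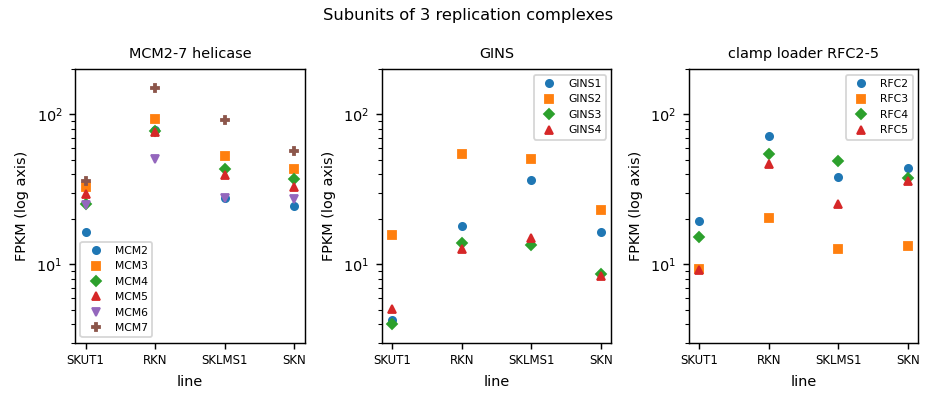
FPKM (log axis) of the subunits of the MCM2-7 helicase, the GINS complex and the clamp loader RFC in each line, 1 point per subunit. MCM7 is highest among the MCM subunits in all 4 lines, GINS2 is highest among the GINS subunits in all 4, and GINS1 separates from GINS3 and GINS4 in SKLMS1 (36.4 against 13.6 and 14.9). The MCM2 point of RKN (79.0) lies under those of MCM4 and MCM5.

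Of the 6 polymerase and primase genes, 4 were at least 2-fold lower in SKUT1. POLE, the catalytic subunit of leading strand polymerase epsilon, was 4.61 in SKUT1, against 12.8 in SKN, 8.63 in SKLMS1 and 19.8 in RKN. Its second subunit POLE2 was 3.89 in SKUT1, with 18.0 for RKN, 15.9 for SKLMS1 and 13.2 for SKN. POLD1, the catalytic subunit of lagging strand polymerase delta, was 6.34 in SKUT1, compared with 15.1 in SKN, 17.5 in SKLMS1 and 28.8 in RKN. Each of these was at least 2-fold lower in SKUT1, with no other line near it. PRIM1, the primase subunit that makes RNA primers, was also 6.34 in SKUT1 but was highest in SKN, with 25.1 there, against 18.5 in RKN and 20.1 in SKLMS1. POLA1, the polymerase that extends those primers, was 5.59 in SKUT1, whereas RKN had 7.68, SKLMS1 9.91 and SKN 7.67. POLA2, its accessory subunit, was 15.5 in SKUT1, against 26.5 in SKN, 17.9 in SKLMS1 and 33.4 in RKN. With log2 differences of -0.51 and -0.67 in SKUT1, neither POLA1 nor POLA2 passed 2-fold.

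PCNA, the clamp, was the most abundant member in SKUT1, RKN and SKLMS1. It was 106 in SKUT1, with 345 for RKN, 378 for SKLMS1 and 152 for SKN. SKUT1 and SKN were thus low and RKN and SKLMS1 high, and the log2 difference in SKLMS1 was 1.08. The clamp loader genes RFC2, RFC4 and RFC5 were at least 2-fold lower in SKUT1. RFC5 was 9.23 in SKUT1, compared with 35.8 in SKN, 25.2 in SKLMS1 and 46.5 in RKN. RFC2 was 19.5 in SKUT1, whereas RKN had 72.3, SKLMS1 38.1 and SKN 43.9. RFC4 was 15.3 in SKUT1, against 37.5 in SKN, 48.9 in SKLMS1 and 54.6 in RKN. In each of the 3, SKUT1 was alone at the low end. RFC3, the remaining subunit of the list, was closer at 9.32 in SKUT1, with 20.4 for RKN, 12.7 for SKLMS1 and 13.2 for SKN.

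Of the 4 genes that finish the lagging strand or cover single-stranded DNA, only RPA3 was 2-fold lower in SKUT1. RPA3, the smallest subunit of the single-strand binding protein RPA, was 9.68 in SKUT1, compared with 32.7 in SKN, 39.8 in SKLMS1 and 22.1 in RKN, and it was the only member below the mean of the other lines in RKN (-0.08). RPA2, the middle subunit, was 36.3 in SKUT1, whereas RKN had 58.9, SKLMS1 28.7 and SKN 37.4, so SKUT1 and SKN were level and SKLMS1 lowest. FEN1, the nuclease that trims Okazaki fragments, was 28.4 in SKUT1, against 59.8 in SKN, 41.5 in SKLMS1 and 56.0 in RKN. LIG1, the ligase that joins them, was 8.36 in SKUT1, with 20.2 for RKN, 14.7 for SKLMS1 and 12.3 for SKN. Both had SKUT1 as the lowest line, with log2 differences of -0.85 and -0.81.

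Of the genes that supply deoxynucleotides, 3 were at least 2-fold lower in SKUT1 and RRM1 was not. TYMS, thymidylate synthase, was 49.6 in SKUT1, compared with 161 in SKN, 139 in SKLMS1 and 282 in RKN. TK1, the thymidine kinase of cycling cells, was 34.6 in SKUT1, whereas RKN had 154, SKLMS1 124 and SKN 73.7. RRM2, the small subunit of ribonucleotide reductase and the one made in S phase, was 34.1 in SKUT1, against 59.0 in SKN, 50.6 in SKLMS1 and 148 in RKN. TYMS and TK1 were clearly apart in SKUT1 (log2 differences of -1.88 and -1.67), whereas RRM2 was set apart mainly by RKN (1.64). RRM1, the large subunit of the same enzyme, was 57.0 in SKUT1, with 79.1 for RKN, 57.1 for SKLMS1 and 65.0 for SKN. The ratio of RRM2 to RRM1 was 0.599 in SKUT1, compared with 0.908 in SKN, 0.886 in SKLMS1 and 1.87 in RKN.

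CDCA7, which brings the chromatin remodeller HELLS to nucleosomes, had the widest range of all members, 166-fold from lowest to highest line. It was 0.224 in SKUT1, whereas RKN had 37.1, SKLMS1 21.7 and SKN 17.5. SKUT1 lay far below the 3 other lines. HELLS itself was 5.15 in SKUT1, against 8.20 in SKN, 8.97 in SKLMS1 and 15.4 in RKN. The ratio of CDCA7 to HELLS was 0.0435 in SKUT1, with 2.41 for RKN, 2.42 for SKLMS1 and 2.13 for SKN.

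**Figure D4:**
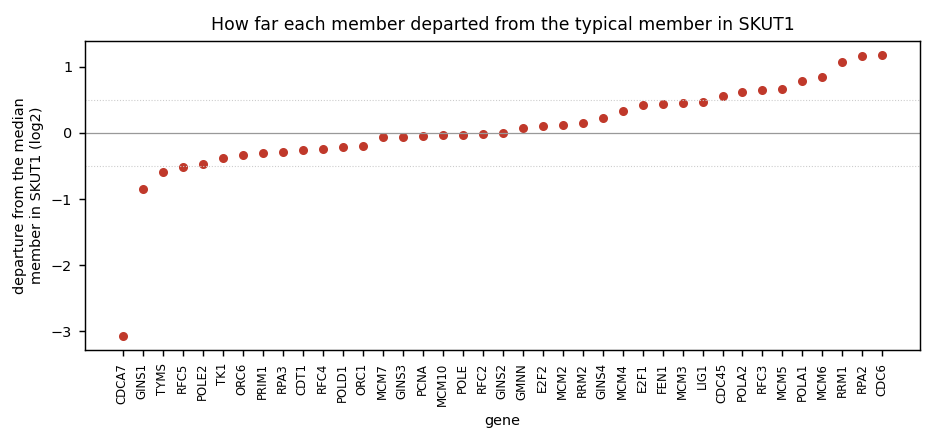
Log2 difference of each member in SKUT1 minus the median member difference there, ordered from low to high, with dotted lines at 0.5 on either side of 0. Of the 39 members 26 lie within the dotted lines, CDCA7 is at -3.07, and CDC6, RPA2 and RRM1 are at 1.18, 1.16 and 1.07.

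How far members departed from the typical member was thus uneven. Within 0.5 of the median member on the log2 scale lay 26 members in SKUT1, 25 in RKN, 26 in SKLMS1 and 31 in SKN. In RKN the members farthest above the median were CDCA7 (1.34) and E2F2 (1.20), and those farthest below were RPA3 (-0.99) and POLA1 (-0.89). In SKLMS1 they were GINS1 (1.55), CDCA7 (1.17) and PCNA (1.01) above and RPA2 (-0.65) below. In SKN CDCA7 (0.94) and PRIM1 (0.93) were farthest above and E2F2 (-0.71) farthest below. The low level of CDCA7 in SKUT1 enters its comparison in each of those 3 lines. Without SKUT1 its log2 difference changed sign to -0.23 in SKLMS1 and to -0.67 in SKN, and was 0.90 in RKN.

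E2F1 and E2F2, activating factors of this programme, had different orders. E2F1 was 12.2 in SKUT1, compared with 18.8 in SKN, 29.8 in SKLMS1 and 21.8 in RKN. E2F2 was the rarer factor, at 0.581 in SKUT1, whereas RKN had 7.72, SKLMS1 1.70 and SKN 0.931. RKN was the line with clear E2F2 expression, at a log2 difference of 2.11, while E2F1 differed there by 0.19. E2F3, which is not a member, was 9.33 to 11.85 across the lines, a 1.27-fold range. Of 30 listed E2F family and G1/S regulators, 6 were at least 2-fold higher and 6 at least 2-fold lower in SKUT1, where 17.9% and 13.1% of kept genes were. In RKN 7 were higher and 4 lower, where 11.6% and 16.6% of kept genes were.

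CDKN1A, the cyclin-dependent kinase inhibitor p21, was 348 in SKUT1, against 12.8 in SKN, 9.94 in SKLMS1 and 5.92 in RKN. CDKN2A, which encodes p16 and p14ARF, was 16.4 in SKUT1, with 326 for RKN, 0.549 for SKLMS1 and 0.125 for SKN. RB1 was 18.8 in SKUT1, compared with 15.2 in SKN, 11.7 in SKLMS1 and 0.752 in RKN, so the line with the highest replication genes had the least RB1 mRNA. The related pocket proteins were closer together, with RBL1 at 5.44 in SKUT1, 5.49 in RKN, 6.51 in SKLMS1 and 7.82 in SKN. RBL2 was 17.3 in SKUT1, whereas RKN had 9.11, SKLMS1 14.1 and SKN 11.7. Like RB1, RBL2 was highest in SKUT1 and lowest in RKN. CDKN1C, the inhibitor p57, was 0.184 in SKUT1, against 24.3 in SKN, 4.60 in SKLMS1 and 2.33 in RKN. Chosen after their values were seen, the kinase gene CDK6 was 0.164 in RKN but 12.2 to 14.2 elsewhere, and the cyclin gene CCND1 was 538 in SKUT1 but 31.9 to 111 elsewhere. The part of these regulators in the level of the replication genes was not tested.

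**Figure D5:**
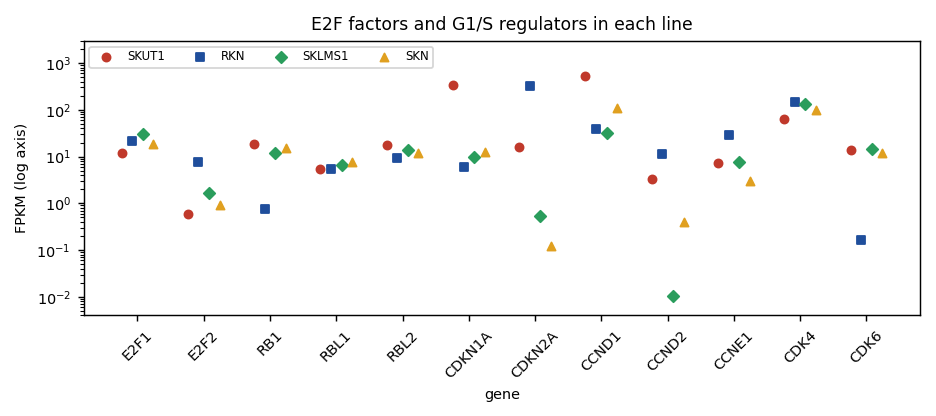
FPKM (log axis) of E2F1, E2F2 and 10 G1/S regulators, 1 point per line. CDKN1A stands at 348 in SKUT1 with every other line at 12.8 or less, and RB1 and CDK6 stand at 0.752 and 0.164 in RKN with every other line at 11.7 or more.

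Replication genes outside the list lay mostly on the same side as the members. Of 32 further replication genes, 12 were at least 2-fold lower in SKUT1 and 1 was higher (median -0.73), and in RKN 7 were higher and 1 lower (median 0.70). Of all kept genes, 13.1% were 2-fold lower and 17.9% higher in SKUT1, and 11.6% were higher and 16.6% lower in RKN. RECQL4, a helicase that helps to fire origins, was 3.38 in SKUT1, with 34.9 for RKN, 16.3 for SKLMS1 and 11.1 for SKN. CHTF18, of an alternative clamp loader, was 2.55 in SKUT1, compared with 8.02 in SKN, 20.9 in SKLMS1 and 14.6 in RKN. At any size of difference, 4 of the 32 lay above the mean of the other lines in SKUT1 and 2 below it in RKN. POLD4, the smallest subunit of polymerase delta, was the only exception past 2-fold in both lines. It was 43.8 in SKUT1, whereas RKN had 4.61, SKLMS1 49.6 and SKN 36.8. RKN, with the most POLD1, thus had the least POLD4.

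Of 11 chromatin assembly genes, 4 were at least 2-fold lower in SKUT1 and none higher (13.1% and 17.9% of kept genes). In RKN 5 were higher and 1 lower (11.6% and 16.6% of kept genes). Their medians were -0.90 in SKUT1 and 0.99 in RKN, against -0.03 and -0.04 for all kept genes. ASF1B, a histone chaperone of dividing cells, was 17.4 in SKUT1, against 39.5 in SKN, 51.3 in SKLMS1 and 91.4 in RKN. UHRF1, which guides DNA methylation at the fork, was 5.32 in SKUT1, with 28.7 for RKN, 11.8 for SKLMS1 and 7.26 for SKN. CDCA7L, a relative of CDCA7, was 3.87 in SKUT1, 1.42 in RKN and 3.81 in SKLMS1, and reached 44.6 in SKN. Its order did not resemble that of CDCA7.

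Mitosis genes were further below the other lines in SKUT1 than the replication genes were. All 22 were at least 2-fold lower there (13.1% of kept genes were), with a median of -2.23 against -1.29 for the replication genes. The gene nearest to the other lines was CENPE at -1.37. KIF20A, a kinesin of late mitosis, was 5.91 in SKUT1, compared with 53.8 in SKN, 75.1 in SKLMS1 and 46.2 in RKN. MYBL2, a factor that switches on late cell cycle genes, was 9.61 in SKUT1, whereas RKN had 57.5, SKLMS1 151 and SKN 98.3. CDC20, which activates the anaphase-promoting complex, was 18.4 in SKUT1, against 149 in SKN, 169 in SKLMS1 and 223 in RKN. SKUT1 was far below every other line for each of these. The proliferation marker MKI67 was 7.87 in SKUT1, with 28.6 for RKN, 27.1 for SKLMS1 and 21.8 for SKN. In RKN the medians were alike (0.80 for mitosis, 0.91 for replication). There 8 of 22 mitosis genes were at least 2-fold higher, where 11.6% of kept genes were. In SKLMS1 and SKN the mitosis medians were 0.71 and 0.55, against 0.08 and -0.08 for replication. Without SKUT1 the mitosis medians were 0.18 in RKN, -0.040 in SKLMS1 and -0.15 in SKN, all near 0, whereas the replication median of RKN was 0.65. The difference between the lists has no test. Of 15 housekeeping genes, 1 was 2-fold lower in SKUT1 and none higher (13.1% and 17.9% of kept genes), with a median of -0.33. The lower gene was HPRT1, a purine salvage enzyme, at 19.1 in SKUT1, compared with 50.6 in SKN, 53.3 in SKLMS1 and 90.8 in RKN. The housekeeping genes with the widest range were IPO8, at 14.5 in SKUT1, 13.5 in RKN, 8.33 in SKLMS1 and 82.8 in SKN, then HPRT1, then TFRC at 95.1 in SKUT1, 76.6 in RKN, 23.3 in SKLMS1 and 101 in SKN.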

How the data were processed

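The authors deposited 1 table of FPKM values per gene symbol with a column for each line. STAR, Cufflinks and build hg19 are named in the submitters' processing notes. For versions, annotation, strand setting and filters, nothing is given in the sources used here. Per the labels' protocols, libraries were made with a stranded mRNA kit and read as single ends of 75 bp. Of 23610 rows, 28 with a date number for a symbol and 5 with a spreadsheet error were left out. A gene was kept when any line reached an FPKM of 1. A line's difference is its log2(FPKM + 1) minus the mean of the other 3 lines, a scale that understates differences of low genes, and 2-fold means 1 on it. Nothing was tested, with 1 library per line. Depth was estimated from low values of genes with a single transcript in GENCODE (assumed fragment length 200), of which 54.4 to 65.7% lay within 0.1 of a whole read; as the unit was fitted to them, this does not check the totals. The code was tested on simulated data. Members and lists were chosen with earlier results of these data known. From each other list the 3 genes with the widest range and an FPKM of 10 or more were named, with RB1, RBL1, RBL2, HELLS and MKI67; others were chosen after their values were seen. Python 3.11.15, pandas 2.3.3 and numpy 2.4.6 were used.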

Additional observations from a re-analysis of the deposited data

How the results depend on the processing

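Medians of the replication genes moved by less than 1.5-fold under pseudocounts of 0.1 and 5, quantile or median-of-ratios normalization, rescaling to TPM, a filter at 5 FPKM or none, the median of the other lines, and leaving out a comparison line, which gave -1.46 to -1.01 in SKUT1 and 0.65 to 1.24 in RKN, but -0.26 to 0.61 in SKLMS1 and -0.45 to 0.20 in SKN. The count of members at least 2-fold lower in SKUT1 was 20 to 28 with a line left out (13.3 to 14.3% of kept genes), and 2 at a limit of 4-fold. The count higher in RKN was 29 after rescaling to TPM (20.5%), 2 at 4-fold and 7 to 23 with a line left out (11.0 to 13.3%). The count higher in SKLMS1 was 2 with a pseudocount of 5 (4.96%), 0 at 4-fold and 1 to 12 with a line left out (10.8 to 12.6%). In SKN 1 was higher and 1 lower with a pseudocount of 0.1 (13.9% and 17.1%), and 2 were lower with the median of the other lines (9.03%). With a line left out, 0 to 3 were higher there (10.2 to 11.6%) and 0 to 4 lower (10.2 to 13.6%). The share of kept genes at 4-fold was not counted. CDCA7 departed from the median member in SKUT1 by -4.89 with a pseudocount of 0.1 and by -1.57 with one of 5, and its log2 difference in SKLMS1 (1.25 against all 3 lines) ran from -0.23, a reversal, without SKUT1 to 2.25 without RKN. With a line left out, the mitosis medians ran from 0.18 to 1.20 in RKN, -0.040 to 1.02 in SKLMS1 and -0.15 to 1.02 in SKN. The cause of these shifts was not tested. The next 2 searches were chosen after seeing the data. Searching 300 bases, the added ones lying after the start, found an E2F word in 20 members (58.8%, against 5.22% of kept genes). Words without the leading T found one in 19 (55.9%, against 17.3%), where the reported search found 15 (44.1%, against 4.29%). At the filter of 5 FPKM no endothelial marker was left to give a value. No paired analysis was possible because each line has a single library. Depth limits only the lowest values, CDCA7 and E2F2 in SKUT1 among the members; the absent replicates limit all others.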

Other observations

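The following enzymes of nucleotide supply were set beside members in pairs chosen after their values were seen. RRM2B (log2 difference 0.95 in SKUT1, short of 2-fold), the small ribonucleotide reductase subunit used by resting cells, was 13.6 in SKUT1, whereas RKN had 6.62, SKLMS1 8.85 and SKN 4.79, and the ratio of RRM2 to RRM2B was 2.50 in SKUT1, against 12.3 in SKN, 5.71 in SKLMS1 and 22.3 in RKN. TK2, the mitochondrial thymidine kinase, was 14.4 in SKUT1, with 7.02 for RKN, 8.10 for SKLMS1 and 4.58 for SKN, and the ratio of TK1 to TK2 was 2.40 in SKUT1, compared with 16.1 in SKN, 15.3 in SKLMS1 and 21.9 in RKN. Of the whole list of 10 further nucleotide supply genes, 3 were at least 2-fold lower in SKUT1 and TK2 alone was 2-fold higher (median -0.24). Of all kept genes, 13.1% were 2-fold lower there and 17.9% higher. SHMT1, a folate enzyme, was 4.58 in SKUT1, whereas RKN had 27.7, SKLMS1 26.4 and SKN 12.7, and DTYMK, the kinase after TK1, was 30.2 in SKUT1, against 107 in SKN, 61.9 in SKLMS1 and 75.7 in RKN. SAMHD1, which degrades deoxynucleotides, was 30.1 in RKN, against 5.10 in SKLMS1, 9.06 in SKN and 7.28 in SKUT1.

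Other ratios were also chosen after their values were seen. PRIM2, the large primase subunit, was 25.7 in SKUT1, with 27.6 for RKN, 16.9 for SKLMS1 and 17.9 for SKN. The ratio of PRIM1 to PRIM2 was 0.246 in SKUT1, compared with 1.41 in SKN, 1.19 in SKLMS1 and 0.669 in RKN. The ratio of POLD1 to POLD4 was 6.26 in RKN, against 0.354 in SKLMS1, 0.409 in SKN and 0.145 in SKUT1. The ratio of RPA3 to RPA1 was 0.326 in SKUT1, whereas RKN had 0.519, SKLMS1 1.57 and SKN 1.20. The ratio of PCNA to MCM2 was highest in SKLMS1, at 13.6, against 6.49 in SKUT1, 4.37 in RKN and 6.18 in SKN.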
